A study of Homo sapiens with 12 samples.

Results

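Distal shared regions without CTCF are stretches of chromatin in control DCIS.COM cells where serine-phosphorylated STAT3 and BCL9 were both mapped, away from protein-coding starts and from mapped CTCF. DCIS.COM is an established human breast cell line that models ductal carcinoma in situ, the non-invasive precursor of invasive breast cancer. Each peak pair of a library was widened to a 100 bp window round its midpoint, windows of one antibody were merged, and a region was kept when at least 2 of 3 control libraries had a window in it. Of 37044 pSTAT3 regions, 8542 overlapped 1 of 11623 BCL9 regions, 7971 of these lay over 1 kb from every protein-coding transcription start site (TSS), and 6194 of those overlapped no window of the CTCF library. The 6194 regions are 77.7% of the distal shared regions, 72.5% of all shared regions and 16.7% of all pSTAT3 regions. The control pSTAT3, control BCL9 and CTCF windows chose them, so the values of those 7 libraries are given as a description. Regions just inside the limit lay 1008, 1009 and 1013 bp from the nearest start site, and regions just outside it lay 980, 988 and 997 bp away.

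The experiment addressed where on chromatin BCL9 and pSTAT3 are found together, and libraries were also made from cells with BCL9 knockdown. ChIP-exo trims immunoprecipitated DNA with an exonuclease up to the crosslinked protein, so that a bound site appears as a pair of borders on opposite strands, a peak pair. The knockdown cells were DCIS.COM cells depleted of BCL9, with 2 libraries of the antibody against STAT3 phosphorylated on serine (S727, pSTAT3) and 2 of the BCL9 antibody. The control cells (NS) were the same line given the control construct that the labels call non-scrambled and the study non-silencing, with 3 libraries of each antibody, 1 of CTCF and 1 of IgG. The labels number the libraries as biological replicates, and all come from 1 cell line. The IgG library was not analysed here. Each list gives a score that is a whole multiple of a step of its library, and this multiple is called tags below. The lists held 415624 and 493174 pSTAT3 peak pairs in knockdown cells, against 118933, 98665 and 374089 in control cells. They held 95586 and 336493 BCL9 peak pairs in knockdown cells, against 28690, 24728 and 148755 in control cells. The CTCF list held 457119. Sequencing depth is unknown, so tags can be ranked within a library but not compared between libraries, and a longer list gives any region a better chance of a window.

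STAT3 is a transcription factor that cytokines of the IL6 family and growth factor receptors activate. Phosphorylation of a tyrosine lets it dimerise and bind palindromic DNA, and phosphorylation of a serine in its transactivation domain modulates its activity. BCL9 binds no DNA itself and is best known as an adaptor of Wnt signalling that joins beta-catenin on TCF/LEF factors to Pygopus. AP-1 is a family of FOS and JUN dimers that occupies many epithelial enhancers, and C/EBP, RUNX, TEAD, ETS and GRHL factors bind enhancers of mammary epithelium too. CTCF is a zinc finger protein that organises chromatin loops. A distal region is one that could act as an enhancer, a stretch that raises transcription of a gene at a distance.

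The sequences that carry the findings below come from 17 members, of which 16 are printed: the 8 with the highest mean rank in the 4 knockdown libraries (at least 50 kb apart, on the chromosomes printed here), and the best ranked member for each DNA string found over 2 times as often in members as in their flanks. Each line gives the nearest protein-coding gene, the hg19 (GRCh37) position and 100 bases of the plus strand, 5′ to 3′, round the strongest control pSTAT3 peak pair. Capitals mark strings of AP-1 (TGACTCA or TGAGTCA), CRE (TGACGTCA), STAT (TTCCNGGAA), C/EBP (TTGCNCAA or TTGNGCAA), ETS (CNGGAAGT or ACTTCCNG), REL (GGGANTTTC or GAAANTCCC), TEAD (ACATTCC or GGAATGT), RUNX (TGTGGTT or AACCACA), GRHL (AACNGGTT or AACCNGTT) and SP/KLF (GGGGCGG or CCGCCCC) factors, searched on both strands. The first 7 lines, HMGA2 to TP63, are top ranked members and the next 9 were chosen for a string.
HMGA2, chr12:66050752-66050851: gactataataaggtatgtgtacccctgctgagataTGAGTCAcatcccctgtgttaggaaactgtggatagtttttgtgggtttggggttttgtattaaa
ZFP36L1, chr14:69162192-69162291: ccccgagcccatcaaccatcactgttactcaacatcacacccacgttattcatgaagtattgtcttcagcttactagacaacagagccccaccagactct
TPRG1, chr3:189042404-189042503: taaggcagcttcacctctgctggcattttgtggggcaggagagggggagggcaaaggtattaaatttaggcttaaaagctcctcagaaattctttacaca
IL1RAP, chr3:190284264-190284363: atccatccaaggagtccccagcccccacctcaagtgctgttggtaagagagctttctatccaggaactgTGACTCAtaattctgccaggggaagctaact
ANXA2, chr15:60685458-60685557: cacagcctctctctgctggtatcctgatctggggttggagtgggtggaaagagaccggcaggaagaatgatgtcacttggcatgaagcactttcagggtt
PYGB, chr20:25218580-25218679: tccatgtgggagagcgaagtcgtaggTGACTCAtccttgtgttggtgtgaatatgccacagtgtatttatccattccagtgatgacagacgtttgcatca
TP63, chr3:189632659-189632758: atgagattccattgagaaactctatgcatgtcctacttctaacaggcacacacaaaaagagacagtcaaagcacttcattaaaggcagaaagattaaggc
ARHGAP30, chr1:161044610-161044709: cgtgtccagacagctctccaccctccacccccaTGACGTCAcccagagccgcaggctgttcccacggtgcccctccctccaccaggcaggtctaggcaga
TGFA, chr2:70751585-70751684: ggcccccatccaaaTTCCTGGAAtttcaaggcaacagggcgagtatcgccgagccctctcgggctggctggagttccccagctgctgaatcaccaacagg
THSD4, chr15:71588051-71588150: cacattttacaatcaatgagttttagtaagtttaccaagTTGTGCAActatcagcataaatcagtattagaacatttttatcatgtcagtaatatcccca
FAM27E3, chr9:67292977-67293076: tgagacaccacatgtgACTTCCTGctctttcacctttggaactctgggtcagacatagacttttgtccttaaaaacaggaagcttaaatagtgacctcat
PLXNA1, chr3:126630418-126630517: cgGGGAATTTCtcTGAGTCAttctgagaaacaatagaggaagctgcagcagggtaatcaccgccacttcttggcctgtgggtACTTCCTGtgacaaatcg
PNPT1, chr2:56006915-56007014: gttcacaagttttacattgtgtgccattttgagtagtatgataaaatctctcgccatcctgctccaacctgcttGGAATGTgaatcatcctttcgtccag
TGFB2, chr1:218550761-218550860: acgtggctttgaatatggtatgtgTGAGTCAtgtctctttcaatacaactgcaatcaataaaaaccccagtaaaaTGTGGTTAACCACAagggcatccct
DUSP6, chr12:89619759-89619858: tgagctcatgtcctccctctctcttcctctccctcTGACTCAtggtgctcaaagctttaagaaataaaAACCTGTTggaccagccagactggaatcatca
LIF, chr22:30606435-30606534: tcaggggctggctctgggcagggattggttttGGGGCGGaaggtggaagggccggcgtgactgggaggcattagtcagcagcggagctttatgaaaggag
Of the 8 top ranked members, 3 hold an AP-1 string in the printed window and 5 hold one somewhere in the region. The regions near TPRG1 and TP63 hold no AP-1 string. The windows near PLXNA1, TGFB2 and DUSP6 hold AP-1 beside another string, and that near TGFB2 holds the RUNX string on both strands, end to end. Of the 17 members, 16 had a window in all 10 pSTAT3 and BCL9 libraries. The FAM27E3 member lies in the duplicated sequence beside the centromere of chromosome 9, where reads can map to more than 1 place, so its values are uncertain.

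The top ranked member lay in a lncRNA gene (chr12:66050604-66051237) 167319 bp upstream of the nearest protein-coding start, that of HMGA2, an architectural chromatin protein. Its strongest peak pair had 126 and 346 tags in the knockdown pSTAT3 libraries, against 129, 107 and 146 in the control pSTAT3 libraries. It had 87 and 65 tags in the knockdown BCL9 libraries, against 30, 22 and 21 in the control BCL9 libraries. The HMGA2 member ranked near the top of every knockdown list, which is how it was chosen. All members given in full were picked by rank in the knockdown libraries, so high knockdown tags follow from that choice. Tags of knockdown and control cells stand side by side as a description only, because depth is unknown. The member in an intron 97505 bp downstream of the start of ZFP36L1, an RNA-binding protein that speeds the decay of AU-rich mRNAs, had 149 and 182 pSTAT3 tags in knockdown cells, against 46, 42 and 85 in control cells. Its BCL9 tags were 63 and 69 in knockdown cells, against 8, 18 and 25 in control cells. The member near TPRG1, a gene named for its regulation by p63, overlapped an exon and had 103 and 129 pSTAT3 tags in knockdown cells, against 52, 40 and 77 in control cells. Its BCL9 tags were 83 and 50 in knockdown cells, against 11, 84 and 55 in control cells, so for BCL9 the groups overlapped.

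IL1RAP encodes the accessory chain of the interleukin-1 receptor, and its member lay in an intron 3110 bp downstream of the start. It had 118 and 78 pSTAT3 tags in knockdown cells, against 35, 58 and 97 in control cells, and 77 and 70 BCL9 tags in knockdown cells, against 25, 36 and 91 in control cells. The member near TP63, the master factor of basal epithelium, lay 125204 bp downstream of the nearest TP63 start. It had 174 and 174 pSTAT3 tags in knockdown cells, against 86, 149 and 199 in control cells, and 49 and 61 BCL9 tags in knockdown cells, against 20, 30 and 97 in control cells. At both loci the knockdown values overlapped the control values. The members near ANXA2 (a membrane-binding annexin) and PYGB (a glycogen phosphorylase) had 76 to 173 tags in knockdown pSTAT3 libraries, against 30 to 108 in control pSTAT3 libraries, and 56 to 67 tags in knockdown BCL9 libraries, against 10 to 70 in control BCL9 libraries.

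Among the members chosen for a string, the CRE member in an intron of ARHGAP30, a GTPase-activating protein, was the lowest ranked. It had 33 and 21 pSTAT3 tags in knockdown cells, against 9, 6 and 25 in control cells, and 10 and 12 BCL9 tags in knockdown cells, against 0, 11 and 8 in control cells. A 0 means that no listed peak pair fell in the region. The STAT member lay in an intron of TGFA, a ligand of the EGF receptor, and had 32 and 54 pSTAT3 tags in knockdown cells, against 12, 9 and 12 in control cells. Its BCL9 tags were 34 and 37 in knockdown cells, against 7, 24 and 20 in control cells. The SP/KLF member lay 36097 bp downstream of the start of LIF, a cytokine that signals through STAT3. It had 66 and 77 pSTAT3 tags in knockdown cells, against 26, 13 and 52 in control cells, and 42 and 69 BCL9 tags in knockdown cells, against 26, 18 and 38 in control cells. The PLXNA1 member, with AP-1, ETS and REL strings in one window near a semaphorin receptor gene, had 106 and 53 pSTAT3 tags in knockdown cells, against 48, 19 and 66 in control cells. Its BCL9 tags were 59 and 66 in knockdown cells, against 26, 81 and 78 in control cells.

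The RUNX member in an intron of TGFB2, a TGF-beta ligand, had 51 and 95 pSTAT3 tags in knockdown cells, against 24, 48 and 42 in control cells, and 73 and 62 BCL9 tags in knockdown cells, against 14, 16 and 38 in control cells. The GRHL member lay in a lncRNA gene 125108 bp downstream of the start of DUSP6, a phosphatase that inactivates ERK. It had 38 and 67 pSTAT3 tags in knockdown cells, against 15, 22 and 37 in control cells, and 74 and 66 BCL9 tags in knockdown cells, against 18, 15 and 54 in control cells. Both windows hold AP-1 beside their own string. The C/EBP member in an intron of THSD4, a protein of extracellular microfibrils, had 80 and 88 pSTAT3 tags in knockdown cells, against 87, 35 and 108 in control cells, and 48 and 40 BCL9 tags in knockdown cells, against 18, 22 and 22 in control cells. The TEAD member, 85962 bp upstream of PNPT1, an RNA-processing enzyme of mitochondria, had 88 and 58 pSTAT3 tags in knockdown cells, against 31, 53 and 90 in control cells, and 62 and 57 BCL9 tags in knockdown cells, against 32, 27 and 120 in control cells. The ETS member at FAM27E3 had 131 and 121 pSTAT3 tags in knockdown cells, against 36, 49 and 95 in control cells, and 46 and 41 BCL9 tags in knockdown cells, against 12, 14 and 34 in control cells. At the TEAD member the groups overlapped for both antibodies, and at the C/EBP member they overlapped for pSTAT3 only.

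In the full knockdown lists nearly all members had pSTAT3 peak pairs, and most had peak pairs of the BCL9 antibody; with every list cut to equal length these shares averaged 41.9% and 56.9%. The share of members with a window was 96.1% and 96.8% in the 2 knockdown pSTAT3 libraries (mean 96.5% ± 0.514, SD, n = 2) and 77.8% and 93.2% in the 2 knockdown BCL9 libraries (mean 85.5% ± 10.9, n = 2). In the control libraries, which chose the members, it was 92.4%, 74.4% and 98.6% for pSTAT3 and 73.4%, 68.2% and 97.1% for BCL9. Both knockdown pSTAT3 libraries had a window in 5817 members (93.9%), against 74.2% of all control pSTAT3 regions. Both knockdown BCL9 libraries had one in 4628 members (74.7%), against 63.9% of all control BCL9 regions. All 4 knockdown libraries had one in 4481 members (72.3%), against 32.5% of all control pSTAT3 regions. These backgrounds include the members themselves. The pSTAT3 background also holds regions without a control BCL9 region, which the rule required of members, so the gap cannot be told apart from that choice. Distal shared regions with CTCF had mean shares of 97.4% in knockdown pSTAT3 and 88.4% in knockdown BCL9 libraries. Shared promoter regions had 91.4% and 81.5%. How far the knockdown removed the BCL9 protein cannot be read from peak lists.

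**Figure D1:**
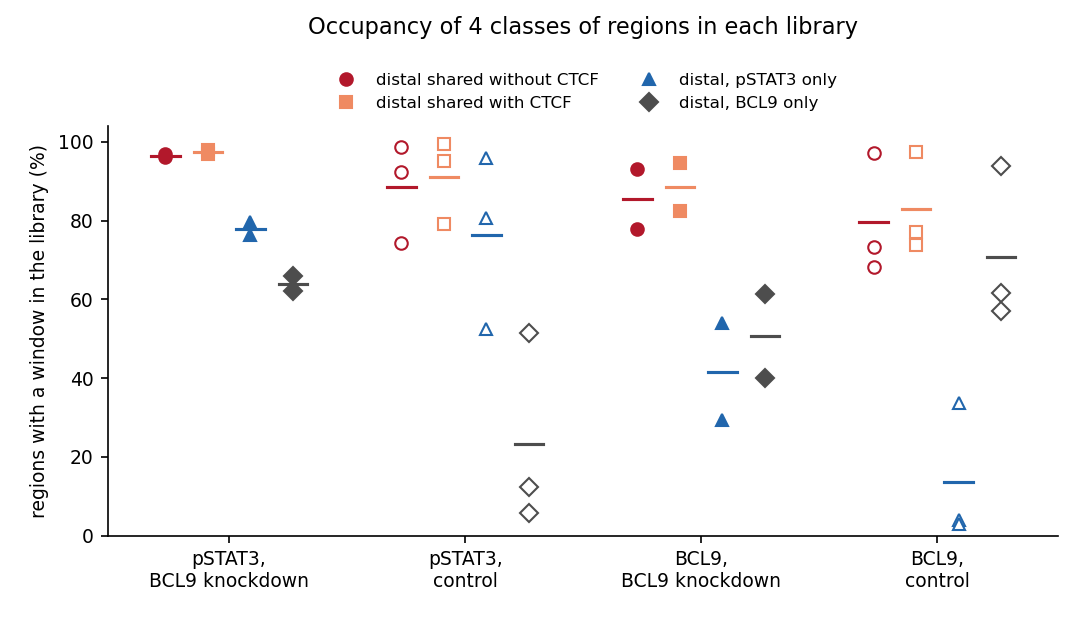
Share of regions with at least 1 window in each pSTAT3 or BCL9 library (y axis, %), for distal shared regions without CTCF and 3 other classes of distal regions, with knockdown libraries (filled) left of control libraries (open). Points are libraries and lines are means; distal shared regions without CTCF sit at 96.1% and 96.8% in the knockdown pSTAT3 libraries and at 77.8% and 93.2% in the knockdown BCL9 libraries.

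Where a library had a window in a member, the strongest peak pair of that member tended to be high in the list. Over members with a window, its median was 20 and 21 tags in the knockdown pSTAT3 libraries and 14 and 14 tags in the knockdown BCL9 libraries, at percentiles 92.6 and 93.5 of the pSTAT3 lists and 88.6 and 94.5 of the BCL9 lists. In control cells the medians were 9, 11 and 18 tags for pSTAT3 (percentiles 77.4, 86.8 and 92.8) and 7, 12 and 15 tags for BCL9 (percentiles 73.7, 67.04 and 91.9). The strongest of several pairs tends to rank high by that choice alone. Members with a window held a mean of 5.83 and 6.10 knockdown pSTAT3 pairs and 2.98 and 4.25 knockdown BCL9 pairs. Distal shared regions with CTCF ranked higher, at median percentiles 93.9 and 95.04 for knockdown pSTAT3 and 91.4 and 96.6 for knockdown BCL9. Distal pSTAT3-only regions without CTCF ranked lower, at 83.6 and 85.8 for pSTAT3 and 65.2 and 80.4 for BCL9. Counting members with no window as 0, the medians were 19 and 20 tags in the knockdown pSTAT3 libraries and 11 and 14 in the knockdown BCL9 libraries. Members held 8.34% and 7.41% of the peak pairs of the knockdown pSTAT3 lists and 15.0% and 7.29% of those of the knockdown BCL9 lists. In control cells, members held 19.7%, 13.9% and 8.48% of the pSTAT3 peak pairs and 36.6%, 39.9% and 14.2% of the BCL9 peak pairs. In every pSTAT3 or BCL9 library members held more than 7% of the list.

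Only 13 members had no window in any knockdown library, 76 had one in 1, 332 in 2 and 1292 in 3 of the 4. The 13 had 4 to 22 tags wherever a control library had a window. One of the 13 lies 37752 bp from a start of SMAD3, a transducer of TGF-beta signals, and the one with the highest control value, 22 tags in 1 control BCL9 library, is nearest to KAZN, a desmosome-associated protein, a gene picked after its value was seen. At the other end, 1879 members (30.3%) had a window in all 10 libraries.

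A control library cannot be tested on regions it helped to choose, so each control library was read at regions chosen from the other control libraries, and the knockdown libraries were read at the same regions. For pSTAT3 the share with a window was 97.7% and 98.1% in knockdown cells (97.9% ± 0.278, n = 2), against 89.9%, 72.2% and 98.1% in control cells (86.7% ± 13.2, n = 3). The difference of 11.2 percentage points lay within the spread of the control libraries (exact two-sided permutation of 5 libraries, p = 0.3, smallest possible 0.1). For BCL9 it was 83.7% and 95.7% in knockdown cells (89.7% ± 8.49, n = 2), against 61.4%, 57.2% and 94.4% in control cells (71.0% ± 20.4, n = 3), a difference of 18.6 points with an exact permutation p of 0.3. The groups overlapped for both antibodies, and in each the control library with the longest list had the highest control share.

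With each list cut to its 24728 strongest peak pairs, the length of the shortest, the pSTAT3 difference changed sign. The pSTAT3 shares were then 82.8% and 81.3% in knockdown cells, against 83.6%, 84.7% and 85.7% in control cells, a difference of -2.60 points. The groups did not overlap, and the exact permutation p was 0.1, the smallest this design allows. The BCL9 shares were 81.4% and 86.8% in knockdown cells, against 77.4%, 77.8% and 86.5% in control cells, a difference of 3.51 points (exact permutation p = 0.5). The change of BCL9 did not differ detectably from that of pSTAT3: it was larger by 7.43 points with whole lists (exact permutation within antibodies, p = 0.76) and by 6.12 points at equal length (permutation p = 0.19). With 2 knockdown and 3 control libraries the permutation test of a single antibody cannot give a p-value under 0.1. For the test between antibodies the smallest possible is 0.01. The tests cannot decide whether either antibody lost peak pairs at these regions. Read in lists of equal length, the members themselves had a window in 41.9% and 41.8% of cases in the knockdown pSTAT3 libraries and 56.8% and 57.0% in the knockdown BCL9 libraries, against 42.9%, 49.9% and 46.1%, and 68.2%, 68.2% and 66.7%, in the control libraries that chose them.

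The 1777 distal shared regions that did overlap a CTCF window served as the closest comparison. Members minus that class differed by -0.852 and -0.970 points in the knockdown pSTAT3 libraries and by -4.53 and -1.33 points in the knockdown BCL9 libraries, a mean of -1.92 points (exact sign-flip permutation over 4 libraries, p = 0.13, the smallest this test can give). Members had the lower share in 4 of 4 libraries, but the difference reversed with a CTCF list cut to equal length (3.33 points, against 42 regions) and with all lists cut (22.6 points, against 10 regions). It was -8.21 points when the same regions were read in lists of equal length and -0.161 points with windows in 3 of 3 control libraries. Regions of one antibody alone had lower shares than members in each knockdown library. They were also narrower, and the rule set them apart by lacking the other antibody in control cells. The 21453 distal pSTAT3 regions without BCL9 or CTCF had windows in 76.3% and 79.6% of cases for pSTAT3 and in 29.3% and 54.0% for BCL9, and the 1952 distal BCL9 regions without pSTAT3 or CTCF in 62.0% and 65.9% for pSTAT3 and in 39.9% and 61.4% for BCL9.

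The absence of CTCF is as good as the 1 CTCF list it rests on. Among the 2000 strongest CTCF windows, 32.3% held the core CTCF string, against 0.5% of their flanks and 0.25% to 0.6% of the strongest windows of the other lists, so the strongest part of the list carries the CTCF sequence. Members held this string in 0.323% of windows and the class with CTCF in 0.788%. The nearest CTCF window lay a median of 1574.5 bp from a member, and 448 members (7.23%) lay under 100 bp from one. With the CTCF list cut to equal length, 42 distal shared regions in place of 1777 overlapped it, so most of the regions set aside for CTCF met only its weaker peak pairs.

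Of the 18 strings searched, AP-1 was the most frequent in members and stood highest above its flanks. The string TGACTCA lay in 22.5% of the 100 bp windows round the strongest control pSTAT3 pair (95% Wilson interval 21.5% to 23.6%, n = 6194), against 2.01% of flanking windows at 500 and 1000 bp on each side, a ratio of 11.2. Searched over the whole region, 38.0% of members held one. A C-rich zinc finger string lay in 14.9% of members, against 11.6% of flanks, and the E-box CAGGTG in 9.77%, against 8.65% of flanks, ratios of 1.29 and 1.13. RUNX strings lay in 6.46% (5.87% to 7.10%), 3.46 times the flanks, TEAD in 5.15% (4.63% to 5.73%), 3.70 times the flanks, and C/EBP in 5.13% (4.61% to 5.71%), 3.91 times the flanks. ETS (2.81%), SP/KLF (1.58%), GRHL (1.45%), REL (0.710%), STAT (0.581%) and CRE (0.129%, 8 members) were each 2.05 to 2.91 times as frequent as in the flanks. Intervals cover counting error only.

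The strings by which STAT3 and the Wnt factors are known were rare or at the level of the flanks. The full STAT palindrome lay in 0.581% of members, against 0.278% of flanks. The looser pair of STAT half-sites (TTCNNNGAA) lay in 3.78% of members, 1.23 times the flanks, and the TCF/LEF string (CTTTGAT) in 1.47%, against 1.55% of flanks. Members had a mean GC content of 46.8%, against 43.4% in flanks. The AP-1 string written backwards (ACTCAGT), which keeps the base composition, was 1.57 times as frequent as in flanks, and FOX (TGTTTAC) and a p53/p63 half-site pair were 1.21 and 1.28 times as frequent. A string match is a description and not a bound site.

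**Figure D2:**
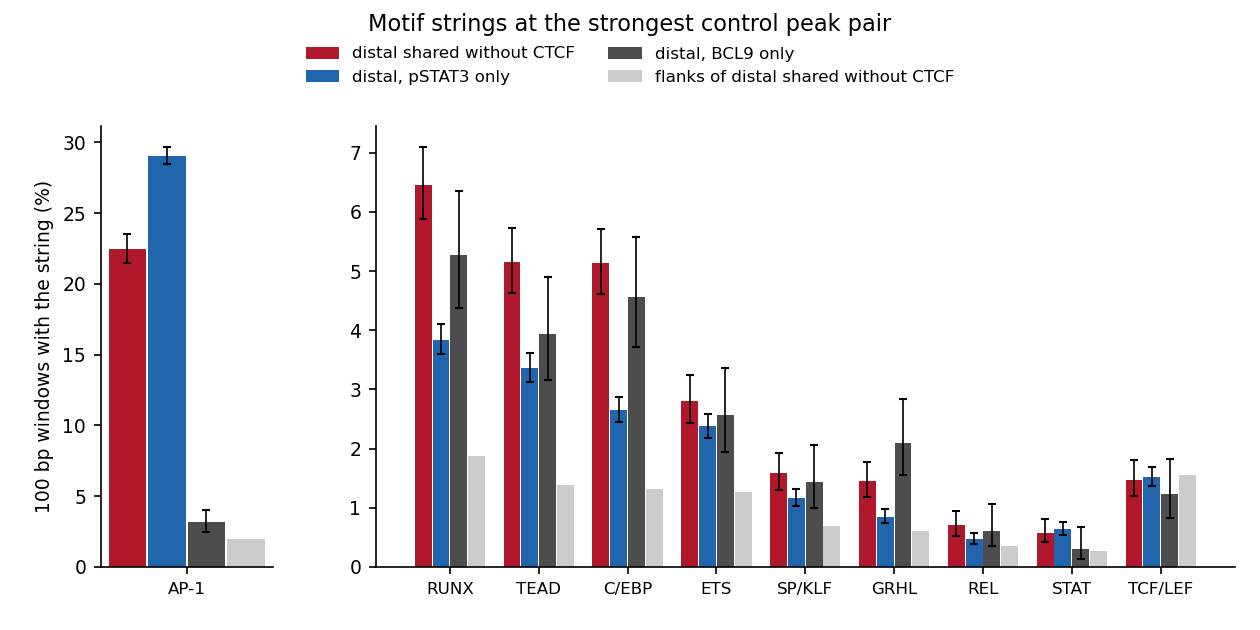
Share of 100 bp windows that hold each string (y axes, %; AP-1 has its own scale) in distal shared regions without CTCF, distal pSTAT3-only and distal BCL9-only regions and the flanks of the first class. Error bars are Wilson intervals for counting error; AP-1 reaches 22.5% in distal shared regions without CTCF, 29.1% in pSTAT3-only and 3.18% in BCL9-only regions. Windows lie round the strongest control BCL9 pair in BCL9-only regions and round the strongest control pSTAT3 pair in the others.

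Compared with pSTAT3 regions that lacked BCL9, members held fewer AP-1 and more of several other strings. AP-1 lay in 22.5% of members, against 29.1% of distal pSTAT3-only and 3.18% of distal BCL9-only regions. Windows of BCL9-only regions lay round the strongest control BCL9 pair, those of the other classes round the strongest control pSTAT3 pair. Read at their strongest control BCL9 pairs, members held AP-1 in 17.1%, 16.3% and 18.2%. Over whole regions AP-1 lay in 38.0% of members, against 41.4% of pSTAT3-only and 5.43% of BCL9-only regions. C/EBP strings lay in 5.13% of members, against 2.66% of pSTAT3-only and 4.56% of BCL9-only regions. RUNX lay in 6.46%, against 3.84% and 5.28%, TEAD in 5.15%, against 3.36% and 3.94%, and GRHL in 1.45%, against 0.853% and 2.10%. STAT strings did not follow this order, with 0.581% of members against 0.643% of pSTAT3-only regions. The class with CTCF was close to members for AP-1, at 21.8%, and the promoter shared regions held AP-1 in 14.2%. The class with CTCF also held C/EBP in 4.90%, RUNX in 5.06% and TEAD in 5.35%. Higher shares of these strings than in pSTAT3-only regions are thus not particular to members.

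Most members with AP-1 held a single string. Over the whole region 3840 members held none, 1904 held 1, 379 held 2, 65 held 3, 4 held 4, 1 held 8 and 1 held 10. A member with 4 lies near FGF2, a growth factor and reported STAT3 target. The members with 8 and 10, singled out after their counts were seen, lie nearest to ANKRD10 and to a gene known here only as ENSG00000237378. Any of the other 9 strings lay in 1345 members (21.7%), in 17.7% of those with AP-1 in the window and in 22.9% of those without. None of the 10 strings lay in 3702 member windows (59.8%).

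AP-1 and strength went together for pSTAT3 and much less for BCL9. Members with AP-1 had median tags of 29 and 31 in the knockdown pSTAT3 libraries, against 18 and 19 in members without. In the knockdown BCL9 libraries the medians were 14 and 15 tags with AP-1 and 14 and 14 without. The share of members with a window was 98.996% and 99.354% with AP-1, against 95.3% and 96.1% without, in the knockdown pSTAT3 libraries, and 80.0% and 93.6%, against 77.2% and 93.0%, in the knockdown BCL9 libraries. These libraries took no part in choosing members, and no test was run because members of a library are not replicates. The string was sought round the strongest control pSTAT3 pair, which favours pSTAT3 over BCL9 in this contrast.

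Since shared regions are stronger than pSTAT3-only regions, the classes were also compared within 4 bands of control pSTAT3 rank, cut at the quartiles of the members (percentiles 84.4, 93.3 and 97.7). Within every band members held AP-1 less often. From the weakest to the strongest band, AP-1 lay in 8.96%, 16.7%, 24.1% and 39.1% of members, against 21.2%, 35.9%, 46.1% and 54.8% of pSTAT3-only regions. C/EBP lay in 5.18%, 6.65%, 4.18% and 4.45% of members, against 2.64%, 2.49%, 2.63% and 3.69% of pSTAT3-only regions. RUNX lay in 5.74%, 6.95%, 6.401% and 6.65%, against 3.64%, 3.90%, 4.62% and 4.23%. AP-1 thus climbed with pSTAT3 rank in both classes while C/EBP, RUNX and TEAD (4.64% to 5.68% of members) showed no steady climb in members.

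Occupancy by the BCL9 antibody in knockdown cells also differed between the classes within bands. The rule itself set the classes apart by windows of this antibody in control cells, which the bands do not remove. Members were also wider, at a median of 301 bp against 193 bp, which gives a window more room to overlap. From weakest to strongest band, 59.4%, 75.1%, 84.7% and 90.5% of members had a window in knockdown BCL9 replicate 1, against 20.4%, 37.7%, 46.97% and 58.5% of pSTAT3-only regions. In replicate 2 it was 84.1%, 92.7%, 96.7% and 98.2% of members, against 42.3%, 66.6%, 77.5% and 85.3%. The bands held 1429, 1640, 1531 and 1594 members and 13011, 4973, 2357 and 1112 pSTAT3-only regions.

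**Figure D3:**
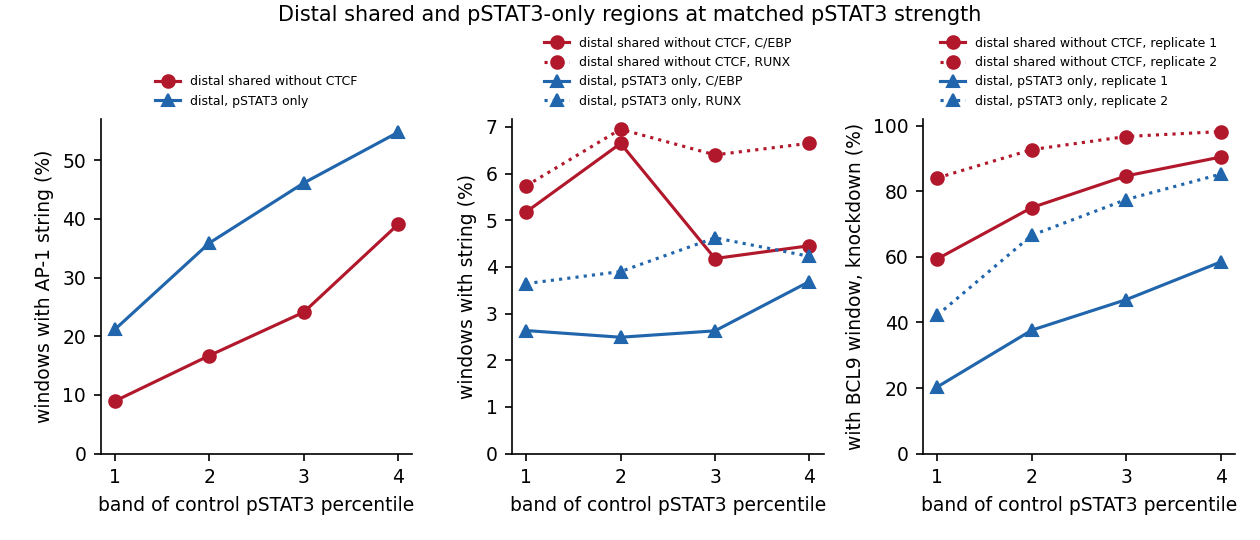
Share of windows with AP-1 (left), with C/EBP or RUNX (middle) and with a knockdown BCL9 window (right; solid, replicate 1; dotted, replicate 2), in %, across 4 bands of control pSTAT3 percentile from weak to strong, for distal shared regions without CTCF (red circles) and distal pSTAT3-only regions (blue triangles). AP-1 is lower in distal shared regions without CTCF in every band (8.96% against 21.2% in the weakest), while BCL9 windows in knockdown cells are more frequent in every band. The rule set the classes apart by control BCL9 windows.

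Within members, the antibodies differed in how close their strongest peak pair lay to the AP-1 string. Among the 1904 members with 1 AP-1 string, the strongest pair within 150 bp lay a median of 40.5 and 41 bp from the string in the knockdown pSTAT3 libraries, against 51 and 50 bp in the knockdown BCL9 libraries. The difference was -9.75 bp (pSTAT3 minus BCL9, exact permutation over 4 libraries, p = 0.333, the smallest possible), and the libraries of the antibodies did not overlap. In control cells the medians were 38, 39 and 38 bp for pSTAT3 and 50, 50 and 48 bp for BCL9. The order was thus the same in the 6 libraries that chose the members, where no test was run. The string had to lie in the pSTAT3 region, which favours pSTAT3 pairs.

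**Figure D4:**
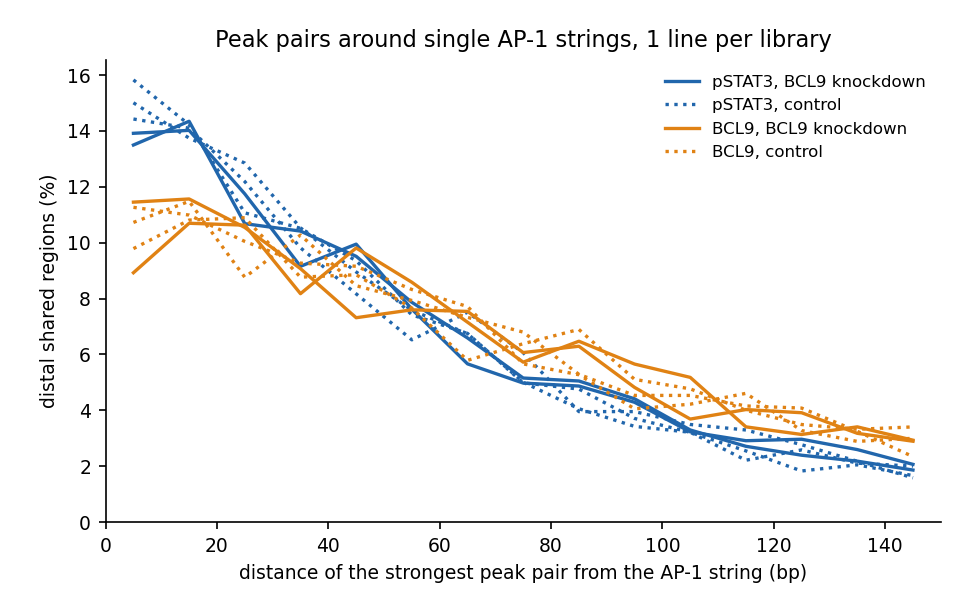
Distance of the strongest peak pair from the AP-1 string (x axis, bp) against the share of distal shared regions without CTCF that hold a single string (y axis, % per 10 bp), with 1 line per library. Lines of pSTAT3 libraries (blue) start higher near the string than those of BCL9 libraries (orange), in knockdown (solid) and control (dotted) cells; within 25 bp lay 34.3% and 34.7% of pairs in the knockdown pSTAT3 libraries and 25.5% and 29.6% in the knockdown BCL9 libraries.

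For ETS the medians were 55.5 and 59.5 bp in the knockdown pSTAT3 libraries, against 59.5 and 63.5 bp in the knockdown BCL9 libraries, so that pSTAT3 lay nearer on average but the libraries met at 59.5 bp. For C/EBP the medians were 53 and 52.5 bp in the knockdown pSTAT3 libraries, against 45.5 and 47.5 bp in the knockdown BCL9 libraries, so that here BCL9 lay nearer, by 6.25 bp (exact permutation p = 0.333). In control cells the C/EBP medians of the antibodies overlapped, at 50.5, 50.5 and 44.5 bp for pSTAT3 and 40.5, 45.5 and 51 bp for BCL9. For TEAD they were 58 and 59 bp, against 59 and 57 bp, and for RUNX 57.5 and 56 bp, against 55 and 53 bp. The share of each library's own strongest windows that held AP-1 was 22.7% and 22.8% in the knockdown pSTAT3 libraries, against 18.03% and 18.25% in the knockdown BCL9 libraries, a difference of 4.58 points (exact permutation p = 0.333). The strongest pSTAT3 and BCL9 pairs of a member lay a median of 53 to 57 bp apart over the 4 pairings of knockdown libraries, with 72.9% to 75.4% under 100 bp, against medians of 49 to 54 bp over the 9 pairings of control libraries.

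Members were a median of 301 bp wide (quartiles 215 and 406, range 101 to 1314), against 357 bp for the class with CTCF, 193 bp for pSTAT3-only and 167.5 bp for BCL9-only regions. Placed by their centre, 2707 members (43.7%) lay in introns of protein-coding genes and 151 (2.44%) in exons of them. By the same measure 2214 (35.7%) lay between genes and 1122 (18.1%) in lncRNA genes. The nearest protein-coding start lay a median of 39700 bp away (quartiles 14446 and 112036). Only 620 members (10.01%) lay 1 to 5 kb from a start, 2317 (37.4%) lay 10 to 50 kb away and 1707 (27.6%) over 100 kb away. Density was 2.04 members per Mb over the genome, with 3.10 on chromosome 17, 2.91 on chromosome 1, 2.78 on chromosome 3 and 0.515 on chromosome X. The copy number of these chromosomes was not measured here, while the study reported amplification of the BCL9 gene in DCIS.COM cells.

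Many members lay in groups. Joined across gaps of up to 12.5 kb they formed 4725 stretches, of which 3710 held a single member. The other 1015 stretches held 2484 members (40.1%), and 37 of them held 5 or more each. The stretch with most members, 13, ran over TPRG1 (chr3:188991462-189042913, 51452 bp), beside TP63. The next, with 11, lay by DNAJB12, a chaperone of the endoplasmic reticulum (chr10:74069991-74091327, 21337 bp), and a further stretch of 7 lay nearby at DDIT4, a stress-induced inhibitor of mTOR (chr10:74008396-74035984). Stretches of 7 also lay by CAMK1G (a calcium/calmodulin kinase), EVA1A (an autophagy regulator) and TLN2 (a talin that links integrins to actin).

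The genes nearest to most members were SOX9 (25 members), CAMK1G (21), TP63 (18), MYC, PDGFC and SMAD3 (16 each), RAD51B, THBS1 and TPRG1 (15 each) and FRMD6 (14). TP63, MYC, SOX9 and SMAD3 encode transcription factors, PDGFC a growth factor, THBS1 an adhesive matrix protein, RAD51B a DNA repair protein and FRMD6 a component of the Hippo pathway. The members nearest to SOX9, a factor of epithelial progenitors, lay a median of 588099 bp from its start, and those nearest to MYC 127867 bp. The SMAD3 members lay close instead, at a median of 14967 bp, with 15 of 16 within 50 kb. At SMAD3, 15 and 15 of the 16 had a window in the knockdown pSTAT3 libraries and 10 and 14 in the knockdown BCL9 libraries, and at TP63 it was 18 and 18, and 15 and 17, of 18. In all 3076 genes were nearest to a member, 230 of them to 5 or more.

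Most of the genes listed for hemidesmosomes, basal epithelium and AP-1 had a member close by. Within 50 kb of a start, 3449 of 19748 protein-coding genes (17.5%) had a member. Among 12 genes of hemidesmosomes and the basement membrane, which anchor basal cells, 10 had one: ITGB4 had 6, LAMB3 5 and LAMA3 4. Among 14 basal epithelial genes 9 had one, led by TP63 with 7, while among 12 luminal genes 2 had one, KRT19 and ESR1 with 2 each, which is at the share over all genes. KRT5, a basal keratin, and the luminal genes KRT8, KRT18, GATA3, FOXA1 and PGR had none, and KRT14, KRT17 and KRT19 had 2 each. The keratin genes of chromosome 17 are neighbours, so a region can count for more than 1 of them. Peak lists hold no expression, so these counts say only where regions lie.

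**Figure D5:**
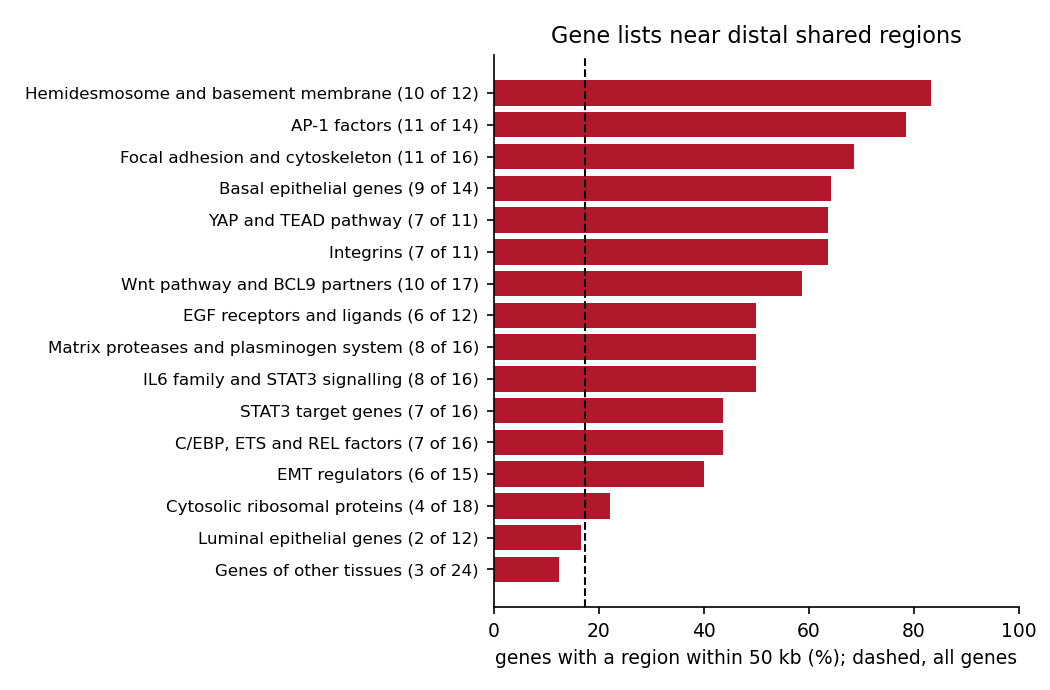
Share of the genes of 16 lists with a distal shared region without CTCF within 50 kb of a start site (x axis, %), with counts beside each name; the dashed line is the share over all protein-coding genes, 17.5%. Hemidesmosome genes (10 of 12) and AP-1 factors (11 of 14) lead, and luminal genes (2 of 12) and genes of other tissues (3 of 24) lie near the line.

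Of 14 AP-1 factor genes 11 had a member within 50 kb, with 4 at FOS, 3 at FOSL2 and 3 at JUN, the genes of the proteins that bind the string most frequent in members. Of 11 integrin genes 7 had one, with 8 at ITGB3, 6 at ITGB6 and 3 at ITGA2, and of 16 focal adhesion and cytoskeletal genes 11 had one, with 10 at PALLD (palladin, an actin crosslinker). Of 11 genes of the YAP and TEAD pathway 7 had one, with 7 at WWTR1, the co-activator TAZ, and 5 at AMOTL2, which binds and restrains YAP. Of 17 Wnt genes and BCL9 partners 10 had one, with 3 at PYGO2, the Pygopus protein that BCL9 binds, and 3 at TCF7L2, and of 12 EGF family genes 6 had one, with 6 at TGFA and 3 at HBEGF.

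Of 16 genes of IL6 cytokines and STAT3 signalling 8 had a member, with 8 at LIF and 5 at OSM, neighbouring cytokine genes that share members, and 2 each at OSMR, JAK1 and STAT3. Of 16 reported STAT3 target genes 7 had one, with 5 at FGF2, 3 at BCL3 and 3 at MCL1, an inhibitor of apoptosis. The remaining lists had a member at 8 of 16 matrix proteases (3 at PLAU, which activates plasminogen), 7 of 16 C/EBP, ETS and REL factors (4 at ELF3, an epithelial ETS factor) and 6 of 15 regulators of epithelial-mesenchymal transition. The lists for contrast had one at 4 of 18 ribosomal protein genes and 3 of 24 genes of other tissues. Members were not alone in this order: distal pSTAT3-only regions lay within 50 kb of 49.9% of all genes, of 92.9% of the AP-1 factors and of 37.5% of the genes of other tissues. The class with CTCF lay within 50 kb of 7.55% of all genes and BCL9-only regions of 8.38%. That class too lay near many hemidesmosome (58.3%), basal (42.9%) and focal adhesion (62.5%) genes, so a high share in these lists is not particular to members. For AP-1 factors (7.14%), Wnt genes (5.88%) and regulators of epithelial-mesenchymal transition (0%) the class with CTCF was not above its 7.55% over all genes. These lists hold only 14, 17 and 15 genes, so a single gene moves a share by several points and no shortfall can be read. No list was tested, and long genes or genes with several starts can have more regions in reach.

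ITGB3, which encodes the integrin beta-3 chain, had 8 members within 50 kb. In the knockdown pSTAT3 libraries 8 and 8 had a window, against 8, 6 and 8 in the control pSTAT3 libraries. In the knockdown BCL9 libraries 7 and 8 had one, against 7, 7 and 8 in the control BCL9 libraries. All 8 thus had a window in at least 1 knockdown library of each antibody, in the full lists. Over all members the shares in the knockdown libraries were 96.1% and 96.8% for pSTAT3 and 77.8% and 93.2% for BCL9, so the 8 were close to members at large. No share at equal list length is given for these 8. The best ranked (chr17:45357882-45358410), in an intron, held 1 AP-1 string, and had 45 and 60 pSTAT3 tags in knockdown cells, against 26, 18 and 43 in control cells, and 38 and 37 BCL9 tags in knockdown cells, against 5, 20 and 38 in control cells. It was the only one of the 8 with an AP-1 string. The member upstream of the gene (chr17:45317381-45317791) had 27 and 75 pSTAT3 tags in knockdown cells, against 12, 6 and 35 in control cells, and 23 and 13 BCL9 tags in knockdown cells, against 5, 16 and 9 in control cells.

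Other cell surface genes of interest had fewer or none, where interest means that their proteins were measured or knocked down in the same work. ITGB4 had 6 members within 50 kb, all 20769 to 39852 bp from its start and nearer to that of another gene. CD44, the hyaluronan receptor, had 5, ITGA2 had 3 and ITGAV had 1, while MMP16, ITGA4, MUC1 and FZD7 had none. At CD44 the best ranked member (chr11:35188058-35188584), in an intron with 1 AP-1 string, had 49 and 101 pSTAT3 tags in knockdown cells, against 34, 55 and 94 in control cells, and 40 and 38 BCL9 tags in knockdown cells, against 7, 23 and 39 in control cells. All 3 ITGA2 members held 1 AP-1 string. The one next to the start (chr5:52283447-52284174), which lies at the 1 kb limit of the rule, had 91 and 71 pSTAT3 tags in knockdown cells, against 13, 22 and 65 in control cells, and 24 and 16 BCL9 tags in knockdown cells, against 8, 0 and 10 in control cells. At LIF the 3 best ranked of the 8 members lay 36097, 39531 and 40863 bp from the start, and the others 1665 to 7994 bp from it.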

How the data were processed

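ChIP-exo of pSTAT3 and BCL9 was measured in DCIS.COM cells with BCL9 knockdown (2 libraries per antibody) and in control cells (3 per antibody), with 1 CTCF library, and 11 of 12 libraries were analysed. The deposited lists give, per peak pair, a midpoint on hg19 and a signal as the authors computed it, and lists were made per library. The signal was ranked within a list and read as tags, that is, as multiples of its smallest step in that library, whose origin is not stated. bcl2fastq and hg19 are named in the submitters' processing notes, while for the aligner nothing was given in the sources used here. Depth is unknown, so intervals cover counting error only.

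Windows of 100 bp overlapped when they shared at least 1 bp. Start sites were 78530 TSSs of 19748 protein-coding genes of GENCODE lifted to GRCh37, and sequence came from the GRCh37 genome. Distance to a start was taken from the nearest edge of a region in the rule, and flanks were 100 bp windows 500 and 1000 bp to either side. Conditions were compared by exact two-sided permutation of libraries. Scripts were tested on simulated lists. Alternatives were a minimum of 9 tags, equal list length (24728), 3 of 3 control libraries, other overlaps, distances and reaches, a shorter CTCF list, each library left out and a replicate block.

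The members, gene lists and strings were chosen with earlier results of these data known. Reading the same members in lists of equal length was added after seeing the data, as were the comparison by pSTAT3 rank, the distances between peak pairs and strings and the check of the CTCF list. Genes were named by rule: the 10 nearest to most members, up to 4 per list with most members within 50 kb, and all surface molecules and knockdown targets of the study. The 17 members given in full were chosen by rank in the knockdown libraries and by string. Members on chromosome 8 were left out of these 17. One of the 17 and some listed genes are not reported here. The software was pysam 0.24.0, matplotlib 3.10.9, scipy 1.17.1, pandas 2.3.3, numpy 2.4.6 and Python 3.11.15.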

Additional observations from a re-analysis of the deposited data

How the results depend on the processing

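Of 116 values of 8 results under 21 alternative settings, 84 were called the same. For tested differences this meant the same sign only, and p-values took no part. For values with no test it meant a move within set limits. These were 1.5 times for counts, the Wilson interval for the AP-1 share and the SD between libraries for knockdown occupancy. The number of members was 3089 with at least 9 tags, 3012 at equal list length and 1990 with windows in 3 of 3 control libraries, and 2571 to 5717 with a control library left out (2571 without control BCL9 replicate 3 and 4120 without replicate 1). The AP-1 share was 26.3% with at least 9 tags, 31.0% at equal length, 23.6% with 3 of 3, 38.0% over whole regions and 19.95% to 25.96% with a library left out. Knockdown pSTAT3 occupancy was 75.5% at equal length, 99.3% with 3 of 3, 41.9% for the same members read at equal length and 96.1% to 98.7% with a library left out, and knockdown BCL9 occupancy was 56.9% for the same members at equal length and 77.8% to 93.2% with a library left out. Genes within reach numbered 1981 with at least 9 tags, 1892 at equal length, 1239 with 3 of 3, 1012 at 10 kb, 5777 at 100 kb and 1586 to 3271 with a library left out (1586 without control BCL9 replicate 3).

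The knockdown minus control difference in held-out occupancy reversed for pSTAT3 at equal list length (-2.60 points) and was 6.84 to 20.1 points with a library left out; for BCL9 it was 12.6 to 31.0. Without 1 control library, these values rest on regions of 1 library. The members minus CTCF class difference reversed at equal length (22.6 points, against only 10 regions) and with a shorter CTCF list (3.33 points, against 42 regions), was -8.21 for the same regions read at equal length and -0.161 with 3 of 3 control libraries, and was -2.28 to -1.05 with a library left out. Sizes moved also where the sign held: held-out BCL9 was 3.51 points at equal length. The replicate number was also used as a block, which gave 16.9 points for pSTAT3 and 30.4 for BCL9 (exact permutation p = 0.5 for both). Deviations of same-numbered libraries correlated at 0.0131 and -0.0437 for pSTAT3 and 0.0101 and -0.0326 for BCL9. With 2 knockdown libraries per antibody their deviations mirror each other, so these values cannot decide whether the number pairs the libraries. Unknown depth and 2 knockdown libraries per antibody limit every comparison, and the cause of the changes with list length was not tested.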
